A study of Homo sapiens with 10 samples.

Results

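The genes described here encode the aminoacyl tRNA synthetases, and the data are the places in the genome where the chromatin reader ZMYND8 was recovered near them in HEK293 cells, an established human embryonic kidney line. The set was chosen by name from the GENCODE annotation of hg19: protein-coding genes whose symbol is a single amino acid letter followed by ARS and an optional 1 or 2, together with EPRS1, FARSA, FARSB and PARS2. Counting autosomal and X-linked genes, this gave 37 of 20098 that code for protein, 20 for enzymes of the cytosol and 17 for enzymes of the mitochondrion. GARS1 and KARS1 supply both compartments and were counted with the cytosolic genes.

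The experiment was a ChIP-seq on crosslinked chromatin digested with micrococcal nuclease, with 10 samples in all: 2 each for H3K14ac, H3K27ac, ZMYND8 and FLAG-ZMYND8, 1 input and 1 FLAG input. For FLAG-ZMYND8, full-length ZMYND8 with a 3xFLAG tag was expressed from an inducible construct with 10 nM doxycycline and pulled down through the tag, so this list reports an added, tagged protein. The labels of the ZMYND8 samples, precipitated with an antibody to the protein itself, name Flp-In T-REx HEK293 cells that stably carried 3xFLAG-ZMYND8 or its N228F mutant and do not state which of these was used. The deposited files analysed here are 1 peak list per target, 15086 peaks for ZMYND8 and 63690 for FLAG-ZMYND8. Neither list separates the replicates or carries read counts, so no spread between replicates can be given, depth is unknown, and every value below is a position, a width or a count of genes. A peak of a list either touches a gene or does not, and 53% of the ZMYND8 list had the smallest width found in it, 151 bp, as did 54.7% of the FLAG-ZMYND8 list, at 167 bp. Histone acetylation and input samples were not analysed here.

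Aminoacyl tRNA synthetases attach each amino acid to its tRNA, which makes them required for every protein that a cell translates. The letter in the symbol is the amino acid (AARS1 charges tRNA with alanine, YARS1 with tyrosine), and most amino acids have a separate nuclear gene for the mitochondrial enzyme, whose symbol ends in 2. Several of the cytosolic enzymes travel in a multisynthetase complex, and many cytosolic synthetase genes are targets of ATF4, the transcription factor that is translated when amino acids run short and that binds a C/EBP-ATF composite site. ZMYND8 carries a PHD finger, a bromodomain and a PWWP domain, which together bind histone tails and DNA.

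The sequences that the results turn on are the ATF4-type sites at the starts of the genes and the DNA under the ZMYND8 peaks. The motif TGATGNAA, in which N is any base, was searched on both strands in the 250 bases before to the 50 bases after the start of each gene's canonical transcript (the transcript that Ensembl marks as representative). It was found at 9 of the 37 genes. The 9 matches are given 5′ to 3′ in hg19 coordinates on the strand where they read TGATGNAA, with 10 bases on each side and the motif in capitals, because 5 of these genes carried the widest ZMYND8 peaks of the family.
AARS1 (chr16:70323579-70323606, plus strand): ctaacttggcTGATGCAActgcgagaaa
CARS1 (chr11:3078638-3078665, plus strand): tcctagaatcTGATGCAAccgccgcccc
GARS1 (chr7:30634451-30634478, minus strand): gctcggagcaTGATGAAAtcgccgcgta
IARS1 (chr9:95055975-95056002, plus strand): cgcacggaggTGATGCAAcgcgctgaaa
MARS1 (chr12:57881837-57881864, minus strand): aatccctcgcTGATGCAAccggaaccgg
NARS1 (chr18:55289037-55289064, minus strand): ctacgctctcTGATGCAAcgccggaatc
TARS1 (chr5:33441063-33441090, minus strand): ctggaccagcTGATGCAAtcgaaaggcg
YARS1 (chr1:33282939-33282966, minus strand): cgagcccagcTGATGCAAcctggctgga
YARS2 (chr12:32909011-32909038, minus strand): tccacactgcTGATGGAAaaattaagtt

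The next 5 sequences are stretches of up to 300 bases of the 5 widest ZMYND8 peaks at synthetase genes, read on the strand of the gene from the part of the peak without annotated untranslated sequence. Capitals mark CpG dinucleotides, which the promoters of many housekeeping genes hold in large numbers. The stretch of YARS1 held 26 CpG and that of GARS1 31, while the shorter one of CARS1 held 15.
YARS1 (chr1:33283633-33283932, minus strand): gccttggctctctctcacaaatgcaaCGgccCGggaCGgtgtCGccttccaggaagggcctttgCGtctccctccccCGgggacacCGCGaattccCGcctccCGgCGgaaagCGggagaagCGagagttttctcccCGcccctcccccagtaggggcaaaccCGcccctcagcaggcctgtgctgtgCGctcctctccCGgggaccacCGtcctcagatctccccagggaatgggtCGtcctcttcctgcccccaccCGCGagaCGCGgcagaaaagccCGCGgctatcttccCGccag
TARS1 (chr5:33440502-33440801, plus strand): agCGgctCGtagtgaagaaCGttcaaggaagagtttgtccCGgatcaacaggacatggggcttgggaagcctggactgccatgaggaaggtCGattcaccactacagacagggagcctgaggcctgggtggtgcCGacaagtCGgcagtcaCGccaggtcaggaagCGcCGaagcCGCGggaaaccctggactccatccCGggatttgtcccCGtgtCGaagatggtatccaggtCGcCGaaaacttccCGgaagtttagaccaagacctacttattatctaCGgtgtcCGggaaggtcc
IARS1 (chr9:95056137-95056436, minus strand): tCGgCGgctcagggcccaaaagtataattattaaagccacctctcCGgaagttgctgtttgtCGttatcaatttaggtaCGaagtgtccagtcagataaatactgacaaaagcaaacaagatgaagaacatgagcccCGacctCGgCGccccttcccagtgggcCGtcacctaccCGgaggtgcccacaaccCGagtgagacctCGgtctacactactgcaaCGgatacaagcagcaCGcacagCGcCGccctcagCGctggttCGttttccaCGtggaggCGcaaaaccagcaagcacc
GARS1 (chr7:30634148-30634447, plus strand): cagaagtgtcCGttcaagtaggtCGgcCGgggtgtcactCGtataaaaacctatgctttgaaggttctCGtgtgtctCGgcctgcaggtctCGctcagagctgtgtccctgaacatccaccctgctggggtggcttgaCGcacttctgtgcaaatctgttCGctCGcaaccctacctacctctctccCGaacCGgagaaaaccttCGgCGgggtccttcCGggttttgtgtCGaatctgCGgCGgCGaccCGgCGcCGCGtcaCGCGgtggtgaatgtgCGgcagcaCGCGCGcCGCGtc
CARS1 (chr11:3078844-3079098, minus strand): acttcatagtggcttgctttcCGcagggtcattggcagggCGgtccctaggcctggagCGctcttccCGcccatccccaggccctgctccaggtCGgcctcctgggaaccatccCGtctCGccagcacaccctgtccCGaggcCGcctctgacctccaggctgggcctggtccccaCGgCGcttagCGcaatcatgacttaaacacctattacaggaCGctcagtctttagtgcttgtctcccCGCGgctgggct

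The DNA of a narrow peak is shown whole because it concerns a pair of neighbouring genes. The peak in an intron of HARS1, upstream of HARS2, was the sole ZMYND8 peak that counted for more than 1 gene of the family, and it is read here on the strand of HARS2. It held 5 CpG, shown in capitals.
HARS1 and HARS2 (chr5:140070649-140070799, plus strand): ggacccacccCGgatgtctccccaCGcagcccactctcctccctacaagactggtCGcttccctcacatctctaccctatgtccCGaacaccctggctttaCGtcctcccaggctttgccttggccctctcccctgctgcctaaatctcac

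A peak was counted at a gene when its midpoint lay within 3 kb of the annotated 5′ end of the gene, and the same count over all protein-coding genes serves as the background. FLAG-ZMYND8 peaks were present at 32 of the 37 synthetase genes (86.5%, 95% Wilson interval 72 to 94.1%), against a background of 58.1%. ZMYND8 peaks were present at 14 of the 37 (37.8%, 24.1 to 53.9%), against 34.1%, a share near the background. The intervals cover counting error only, and genes are not replicates of a condition. The 14 genes with a ZMYND8 peak were AARS1, CARS1, EPRS1, HARS1, IARS1, TARS1, VARS1 and YARS1 among the cytosolic enzymes and HARS2, IARS2, NARS2, SARS2, VARS2 and WARS2 among the mitochondrial ones.

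Peaks of both lists lay at 13 genes (35.1%, background 29.4%), and 6 genes held peaks of the lists that overlapped each other by at least 1 bp (16.2%, background 20.4%): AARS1, CARS1, IARS1, TARS1, YARS1 and NARS2. SARS2 had a ZMYND8 peak alone (background 4.73%). Neither list had a peak at EARS2, FARSB, GARS1 and MARS1 (10.8%, background 37.2%). Within 1 kb, the counts were 13 for ZMYND8 (background 28.5%), 30 for FLAG-ZMYND8 (background 49.3%) and 13 for both (background 22.7%). Within 500 bp they were 11, 25 and 10, against backgrounds of 21.5%, 37.6% and 14.5%. The background lay below the Wilson interval of the FLAG-ZMYND8 share at each of these windows and inside the interval of the ZMYND8 share.

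In the 300 bases around the gene start, synthetase genes held a median of 22 CpG and all protein-coding genes 18, whereas at canonical starts both medians were 23. The background was higher among CpG-rich genes. With at least 19 CpG in that window, a limit set after the values were seen, 9805 protein-coding genes remained. Of these, 78.1% had a FLAG-ZMYND8 peak within 3 kb and 48.1% a ZMYND8 peak. Among the 24 synthetase genes past the same limit, 21 (87.5%) had a FLAG-ZMYND8 peak and 12 (50%) a ZMYND8 peak. From canonical starts, 25 of the 28 synthetase genes past the limit (89.3%) had a FLAG-ZMYND8 peak, against 78.7% of such protein-coding genes, and 15 (53.6%) a ZMYND8 peak, against 48.6%. The part of CpG content in the FLAG-ZMYND8 count was not tested.

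The annotated 5′ end is not the usual start of every gene. The canonical start lay within 500 bp of it at 31 of the 37 genes, 1458 bp downstream at WARS1, 7487 bp at CARS2, 12623 bp at MARS1 and 14345 bp at GARS1. Counted from canonical starts, an alternative added after the data were seen, ZMYND8 peaks lay within 3 kb of 16 genes (43.2%, background 35.2%), with GARS1 and MARS1 added. FLAG-ZMYND8 peaks lay at 33 genes (89.2%, background 59.6%), with GARS1 and MARS1 added and CARS2 lost. Peaks of both lists lay at 15 genes (40.5%, background 30.4%). Overlapping peaks lay at 7 genes (background 21.1%), and the genes without a peak of either list were CARS2, EARS2 and FARSB (8.11%, background 35.6%).

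**Figure D1:**
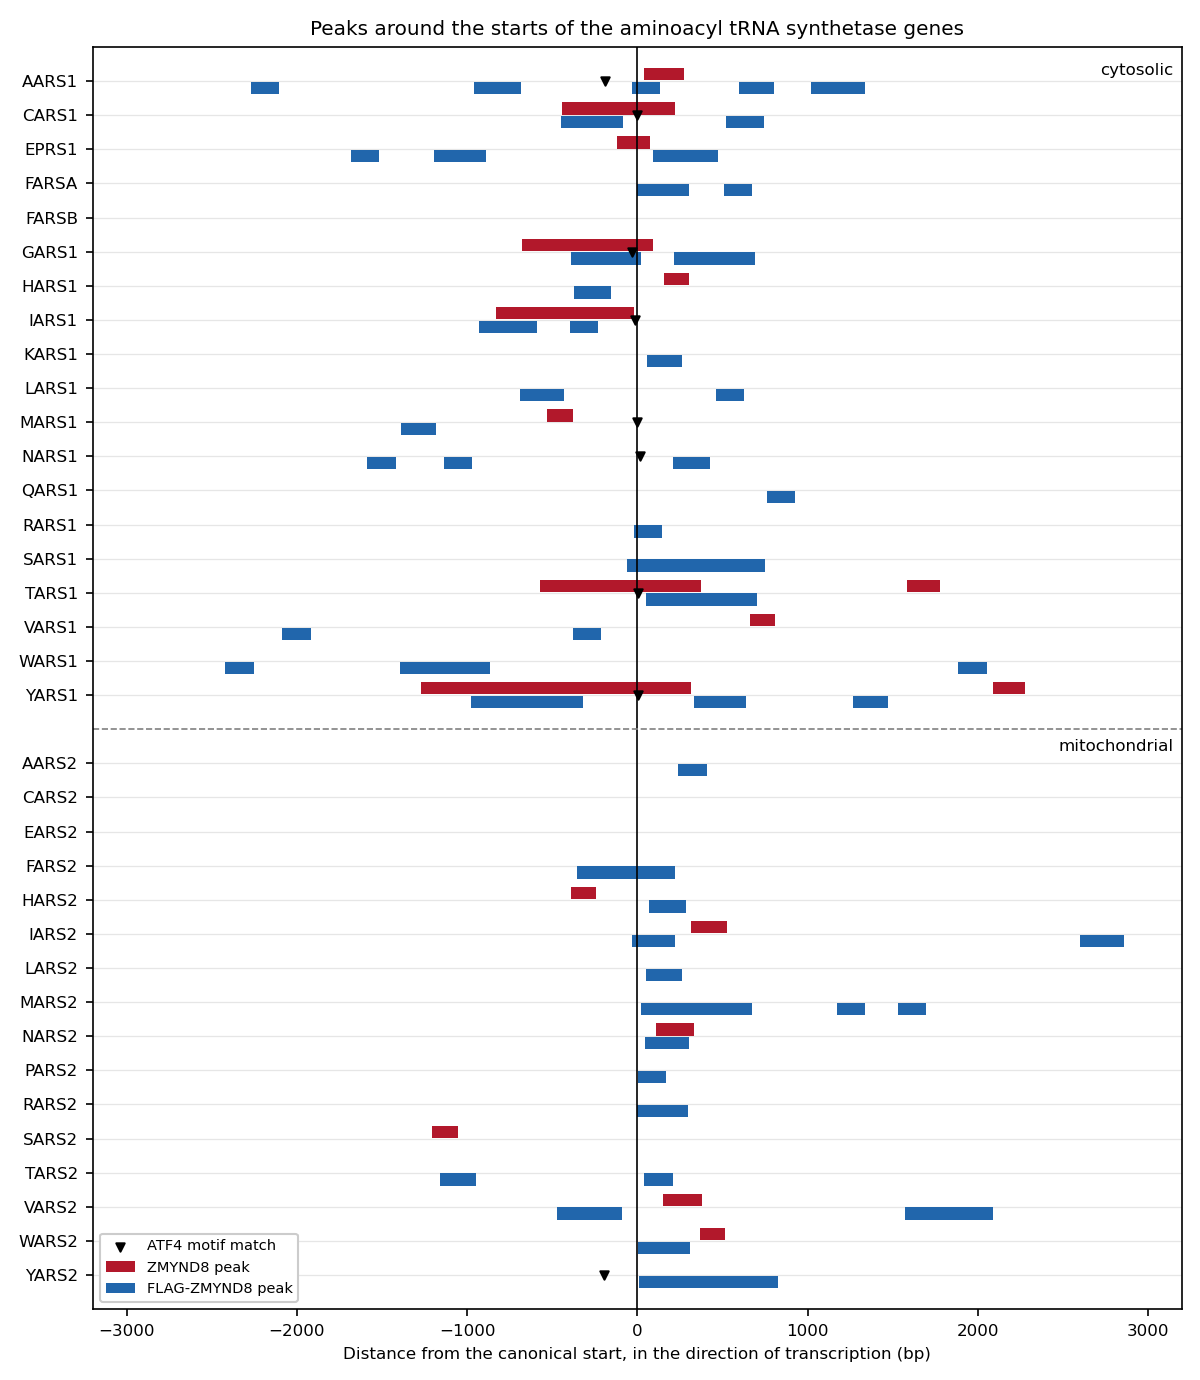
Positions of ZMYND8 peaks (red) and FLAG-ZMYND8 peaks (blue) within 3 kb of the canonical start for 35 of the 37 genes, in bp along the direction of transcription, with bar length equal to peak width and black triangles at the 9 ATF4 motif matches. The wide red bars at CARS1, GARS1, IARS1, TARS1 and YARS1 reach or cross the region of the start, and CARS2, EARS2 and FARSB have no bar.

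Width set a small group of cytosolic genes apart. ZMYND8 peaks of 664 bp or more lay at YARS1, TARS1, IARS1, GARS1 and CARS1, which charge tRNAs with tyrosine, threonine, isoleucine, glycine and cysteine. The next widest ZMYND8 peak at a synthetase gene measured 232 bp. The limit is the width at CARS1 and was chosen after the widths were seen. Over all protein-coding genes, 1348 (6.71%) had a peak of at least this width within 3 kb of the canonical start, which is 19.0% of the 7080 genes with any ZMYND8 peak there. Among the synthetase genes the count was 5 of 37 (13.5%).

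YARS1 carried the widest of these peaks, 1587 bp at chr1:33282642-33284228, rank 257 of the 15086 ZMYND8 peaks by width. It crossed both the gene start and the canonical start and overlapped a FLAG-ZMYND8 peak of 656 bp. Together with another ZMYND8 peak of 190 bp centred 2855 bp downstream, 1777 bases within 3 kb of the gene start were covered, more than at 99.3% of protein-coding genes. The canonical start of S100PBP, transcribed in the opposite direction, lay 181 bp from the midpoint of the wide peak, so the peak cannot be assigned to YARS1 alone.

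TARS1 carried a ZMYND8 peak of 948 bp at chr5:33440498-33441445 (rank 950) across its start, with a FLAG-ZMYND8 peak of 651 bp overlapping it. A narrow ZMYND8 peak of 190 bp lay 1950 bp downstream, in an intron. The 1138 covered bases exceeded those at 97.5% of protein-coding genes. The closest canonical start of another protein-coding gene, ADAMTS12, was 451124 bp away from the midpoint of the wide peak.

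The IARS1 peak measured 814 bp (chr9:95055998-95056811, rank 1254), lay mostly upstream of the gene and overlapped 2 FLAG-ZMYND8 peaks, the wider of them 340 bp. Its covered bases exceeded those at 94.7% of protein-coding genes. The CARS1 peak measured 664 bp (chr11:3078435-3079098, rank 1674), crossed the start and overlapped a FLAG-ZMYND8 peak of 362 bp, and its covered bases exceeded those at 93% of protein-coding genes.

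At GARS1 the ZMYND8 peak of 769 bp (chr7:30633815-30634583, rank 1358) crossed the canonical start and lay 14050 bp downstream of the annotated 5′ end, so the main count places it in the gene body. A FLAG-ZMYND8 peak of 409 bp overlapped it, and another of 476 bp lay 454 bp downstream of the canonical start. GARS1 charges tRNAs in both the cytosol and the mitochondrion. All 5 wide peaks therefore overlapped a peak of the tagged protein, beside 40% of the whole ZMYND8 list. A wide peak has more bases that can overlap, and the share among equally wide peaks elsewhere was not computed.

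The other ZMYND8 peaks at synthetase genes were narrow. AARS1 had a peak of 232 bp centred 357 bp downstream of its start, which overlapped a FLAG-ZMYND8 peak of 167 bp. VARS2 had a peak of 232 bp at 299 bp downstream, IARS2 one of 209 bp at 422 bp, and EPRS1, whose product joins glutamate and proline to their tRNAs, one of 192 bp at 3 bp. NARS2, the mitochondrial asparagine enzyme, had a peak of 226 bp that overlapped a FLAG-ZMYND8 peak of 258 bp. The peaks of VARS1, WARS2, SARS2 and the HARS1 and HARS2 pair had the smallest width of the list, 151 bp, as did the peak of MARS1 at 453 bp upstream of its canonical start. In all, the 16 combinations of a gene and a ZMYND8 peak within 3 kb of the gene start came from 15 peaks with a median width of 209 bp, 4 of them of the smallest width.

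HARS1 and HARS2 charge tRNAs with histidine in the cytosol and the mitochondrion and are transcribed away from each other. They shared a ZMYND8 peak (chr5:140070649-140070799), centred 398 bp downstream of the HARS1 start and 291 bp upstream of the HARS2 start. They also shared a FLAG-ZMYND8 peak of 217 bp, 98 bp upstream of the HARS1 start and 205 bp downstream of that of HARS2. These peaks did not overlap. Each was counted once for either gene, so the values of the pair are not independent.

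FLAG-ZMYND8 peaks at synthetase genes were more numerous, 56 combinations of a gene and a peak from 55 peaks, with a median width of 223 bp. Of the 55, 7 overlapped a ZMYND8 peak, a share near the 10.7% of the whole FLAG-ZMYND8 list. The smallest width was found for 19, beside 54.7% of the list. At 15 genes (40.5%) there were at least 2 such peaks within 3 kb of the start, against 32.5% of protein-coding genes. AARS1 held the most, 5 peaks over 1135 bases, more bases than at 91.9% of protein-coding genes. YARS1 had 1173 bases (92.4%), MARS2 990 (88.9%), VARS2 895 (86.2%) and EPRS1 856 (85.2%). The widest single FLAG-ZMYND8 peak, 817 bp, lay at YARS2, where no ZMYND8 peak was found within 3 kb.

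CARS2, the mitochondrial cysteine enzyme, had the most FLAG-ZMYND8 bases counted from the gene start, 1667 in 4 peaks. The 5′ end of ING1, a gene on the opposite strand, lies 867 bp downstream of the gene start of CARS2, and none of the 4 peaks lay within 3 kb of the canonical start of CARS2. The midpoints of these peaks lay 957, 276, 1230 and 2470 bp from the canonical start of ING1, so they cannot be assigned to CARS2 alone. The count at CARS2 thus rests on the start that is used.

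The genes without peaks were looked at one by one. FARSB encodes the beta subunit of the cytosolic phenylalanine enzyme, and its nearest FLAG-ZMYND8 peak lay 15783 bp upstream and its nearest ZMYND8 peak 205034 bp upstream. FARSA, which encodes the alpha subunit of the same enzyme, held 2 FLAG-ZMYND8 peaks over 468 bases. EARS2, the mitochondrial glutamate enzyme, had its nearest FLAG-ZMYND8 peak 25119 bp upstream and its nearest ZMYND8 peak 39640 bp upstream. SARS2, the mitochondrial serine enzyme, had a ZMYND8 peak of 151 bp centred 1129 bp upstream of its start and 948 bp from the start of MRPS12, while its nearest FLAG-ZMYND8 peak was 23680 bp downstream.

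**Figure D2:**
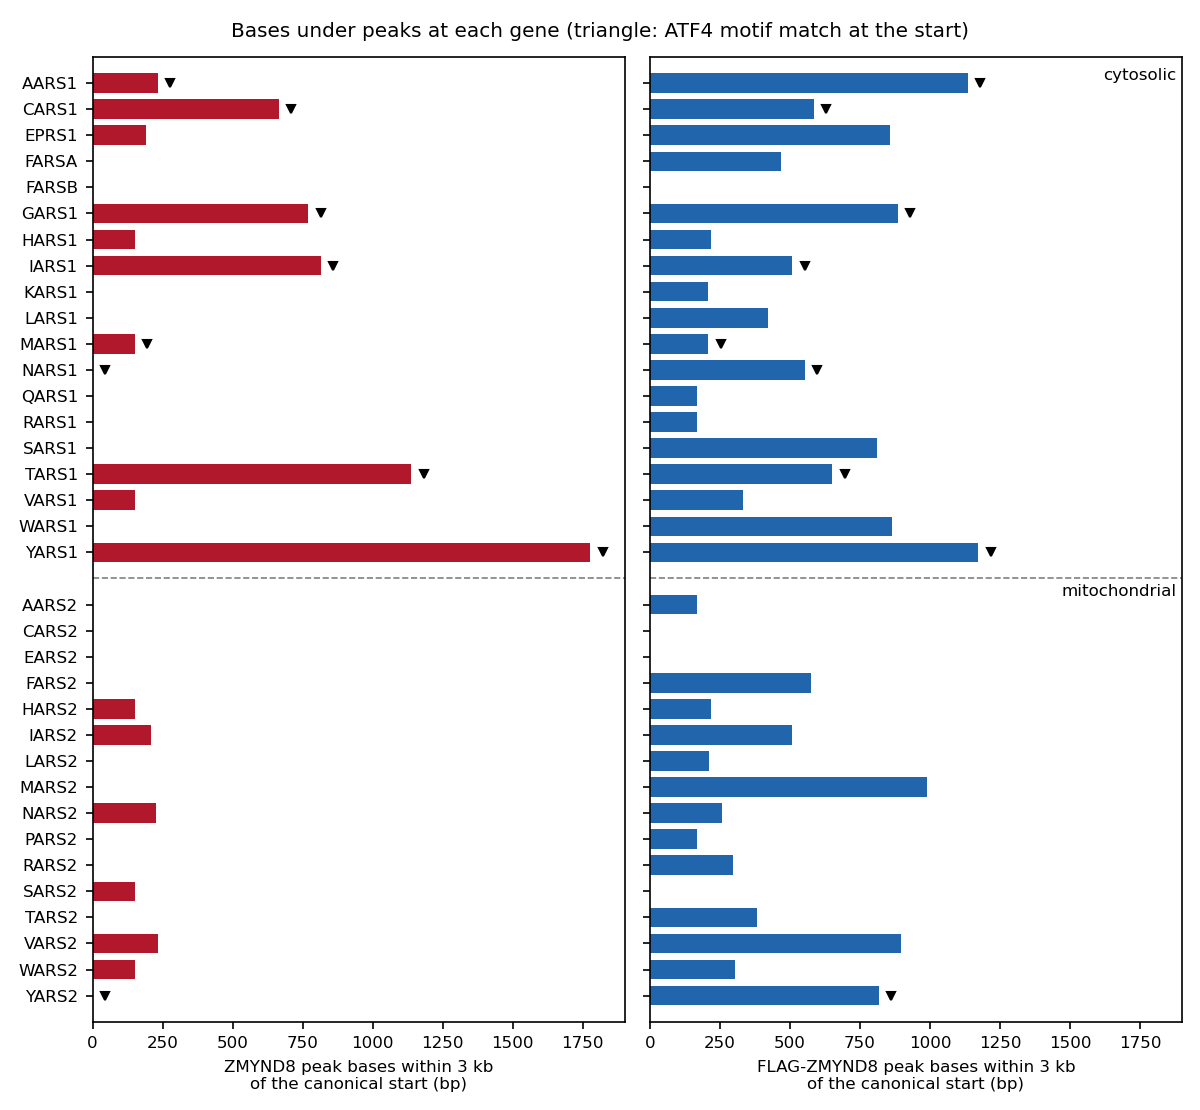
Bases covered by ZMYND8 peaks (left, red) and FLAG-ZMYND8 peaks (right, blue) within 3 kb of the canonical start, in bp, for 35 of the 37 genes, with triangles at the genes that hold the ATF4 motif. In the left panel YARS1 (1777 bp), TARS1 (1138 bp), IARS1 (814 bp), GARS1 (769 bp) and CARS1 (664 bp) stand above the rest, which end at 232 bp, and each of these 5 bears a triangle. The right panel shows no such step.

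Cytosolic and mitochondrial enzymes were compared next. ZMYND8 peaks lay within 3 kb of the gene start at 8 of 20 cytosolic genes (40%) and 6 of 17 mitochondrial genes (35.3%), a difference of 4.71 percentage points with a 95% Newcombe interval from -24.9 to 32.6. FLAG-ZMYND8 peaks lay at 17 of 20 (85%) and 15 of 17 (88.2%), a difference of -3.24 points (-25.9 to 21.4). From canonical starts the differences were 14.7 points for ZMYND8 (-16.1 to 41.7) and 12.6 points for FLAG-ZMYND8 (-9.21 to 36.4). Every one of these intervals includes 0 and is wide, so a difference between the compartments was not detectable with so few genes, which does not show that the compartments are alike.

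The DNA under the peaks was also summed by compartment. Among genes with a ZMYND8 peak at the gene start, the median coverage was 448 bp for the cytosolic genes, 180 bp for the mitochondrial genes and 258 bp for all protein-coding genes. For FLAG-ZMYND8 the medians were 507 bp, 305 bp and 505 bp. Overlapping peaks lay at 5 of 20 cytosolic (25%) and 1 of 17 mitochondrial genes (5.88%), against a background of 20.4%. The wide ZMYND8 peaks lay at 5 of 20 cytosolic and 0 of 17 mitochondrial genes (background 6.71%). These differences are given without a test, since the genes were not sampled and the width limit followed from the data.

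**Figure D3:**
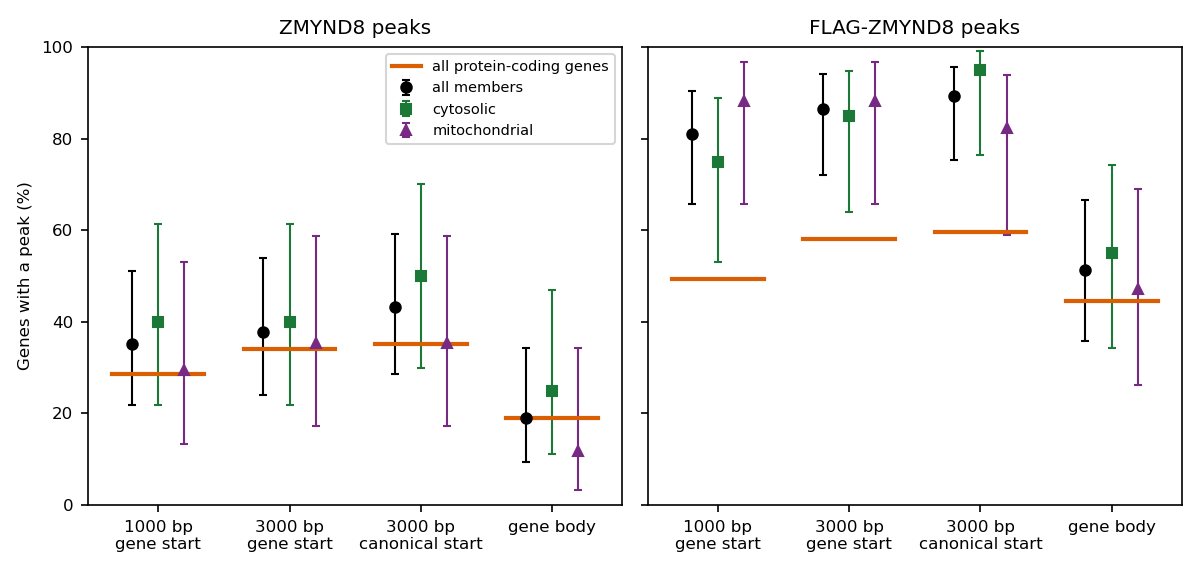
Percent of genes with a ZMYND8 peak (left) or a FLAG-ZMYND8 peak (right) by window and start, for all 37 members (circles), the 20 cytosolic (squares) and the 17 mitochondrial genes (triangles), with 95% Wilson intervals as bars and the share of all protein-coding genes as an orange line. The FLAG-ZMYND8 points at gene starts sit above the orange line (86.5% against 58.1% at 3 kb), whereas the ZMYND8 intervals include it (37.8% against 34.1%).

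For 14 amino acids the symbols of the cytosolic and the mitochondrial gene differ only in the final digit, and these pairs were set side by side. The mitochondrial genes EARS2, FARS2 and PARS2 also have separate cytosolic counterparts, EPRS1 or FARSA and FARSB, but form no such pair and were left out. ZMYND8 peaks lay at both genes for histidine, isoleucine and valine, a count of 3. They lay at the cytosolic gene alone for alanine, cysteine, threonine and tyrosine (4), and at the mitochondrial gene alone for asparagine, serine and tryptophan (3). Neither gene had one for the other 4, among them leucine and methionine. FLAG-ZMYND8 peaks lay at both genes for 12 of the 14, at the cytosolic gene alone for serine and at the mitochondrial gene alone for methionine. The tyrosine pair was the most uneven for ZMYND8, with 1777 covered bases at YARS1 and 0 at YARS2, where the FLAG-ZMYND8 peaks covered 1173 and 817 bases.

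The list of known ATF4 targets, written from general knowledge, holds 12 of the cytosolic genes: AARS1, CARS1, EPRS1, GARS1, IARS1, LARS1, MARS1, NARS1, SARS1, TARS1, WARS1 and YARS1. ZMYND8 peaks lay within 3 kb of the gene start at 6 of these 12 (50%, Wilson interval 25.4 to 74.6%) and at 2 of the other 8 cytosolic genes, HARS1 and VARS1, against a background of 34.1%. From canonical starts the counts were 8 of 12 (66.7%, Wilson interval 39.1 to 86.2%) and 2 of 8 (25%, 7.15 to 59.1%). These intervals overlap each other. The background of 35.2% lies below the interval of the ATF4 targets and inside that of the others. From gene starts, the background of 34.1% lies inside the interval of the ATF4 targets. GARS1 and MARS1 count only from canonical starts, which were added after the data were seen. The list was chosen with earlier results of these data known, so these intervals are no test of it. FLAG-ZMYND8 peaks lay at 12 of 12 and 7 of 8 from canonical starts (background 59.6%). The 5 wide ZMYND8 peaks all lay at genes of this list, 5 of 12 (41.7%) against 0 of the other 25 synthetase genes (background 6.71%). Overlapping peaks of the lists lay at 6 of the 12 from canonical starts and at 0 of the 8 (background 21.1%).

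TGATGNAA lay at the canonical start of 9 of the 37 synthetase genes (24.3%), against 2.48% of all protein-coding genes, and 8 of these 9 are on the ATF4 list. Since that list is of ATF4 targets and the motif is an ATF4 site, the match between them is no separate evidence. The exception was YARS2. The match lay within 33 bp of the canonical start at CARS1, GARS1, IARS1, MARS1, NARS1, TARS1 and YARS1, and 187 bp and 197 bp upstream at AARS1 and YARS2. A ZMYND8 peak was present at 7 of the 9 (background 35.2%), the exceptions being NARS1 and YARS2. Over all protein-coding genes with the motif at the canonical start, 96 of 499 had a ZMYND8 peak. The match itself fell inside the ZMYND8 peak at CARS1, GARS1, TARS1 and YARS1.

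All 5 synthetase genes with a wide ZMYND8 peak held the motif, whereas over all protein-coding genes the motif was rarer where ZMYND8 peaks lay. It was present at 1.36% of the protein-coding genes with a ZMYND8 peak and at 22 of the 1348 with a wide one (1.63%). Of the 499 protein-coding genes with the motif at the canonical start, 22 (4.41%) had a wide ZMYND8 peak, a lower share than the 6.71% of all genes. Counted from gene starts the motif lay at 2 synthetase genes, AARS1 and YARS2 (background 2.72%), so this result holds for canonical starts. A match is a description of the letters and does not show that a factor bound there.

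The remaining motifs were searched in the same windows and on both strands, and no match of one motif overlapped a match of another at these genes. The ETS motif CCGGAAG lay at the canonical start of 14 of the 37 genes (37.8%), against 14% of protein-coding genes. Of these 14 genes, 5 had a ZMYND8 peak, near the background of 35.2%. From gene starts the ETS motif lay at 8 (21.6%), against 11.8%. The E-box CACGTG lay at 4 (EARS2, IARS1, MARS2 and VARS1; 8.74% of protein-coding genes), the NRF1 motif at MARS2 and VARS2 (1.69%) and the CRE motif TGACGTCA at LARS1 (2.69%). In the windows at canonical starts, median GC content was 62.3% for the synthetase genes and 63.7% for all protein-coding genes. Synthetase genes with a ZMYND8 peak had a median of 25 CpG there and those without one 23, against 29 and 17 for all protein-coding genes with and without one.

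The enzymes were also grouped by complex and by catalytic fold. Of the 8 enzymes of the multisynthetase complex, among them EPRS1, IARS1, KARS1 and MARS1, 2 had a ZMYND8 peak at the gene start and 7 a FLAG-ZMYND8 peak, beside 6 and 10 of the 12 cytosolic genes outside it (backgrounds 34.1% and 58.1%). From canonical starts the ZMYND8 counts were 3 of 8 and 7 of 12 (background 35.2%). By catalytic fold, ZMYND8 peaks lay at 7 of 18 class I and 6 of 18 class II genes and FLAG-ZMYND8 peaks at 16 and 15, counted from gene starts with the same backgrounds of 34.1% and 58.1%. EPRS1, with a catalytic domain of each class, was left out of that count.

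Some of these genes start beside another gene. A protein-coding start on the opposite strand lay within 1 kb of the start at 12 of the 37 genes, 5 cytosolic and 7 mitochondrial, when either the gene starts or the canonical starts of both genes are compared. YARS1 and S100PBP are among them by canonical starts alone, since their gene starts are 1264 bp apart. ZMYND8 peaks lay within 3 kb of the gene start at 5 of the 12 and at 9 of the other 25 (background 34.1%), and FLAG-ZMYND8 peaks at 10 of 12 and 22 of 25 (background 58.1%). The HARS1 and HARS2 peaks and the wide YARS1 peak are examples that lie near the starts of both neighbours, whereas the ZMYND8 peak of AARS1 lay 156 bp from its canonical start and 9836 bp from that of DDX19B.

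The gene body was taken as the span beyond 3 kb downstream of the start. FLAG-ZMYND8 peaks lay in the bodies of 19 of the 37 genes (51.4%, background 44.6%), 54 peaks in all, or 2.55 per 100 kb against 2.49 for all protein-coding genes. ZMYND8 peaks lay in 7 bodies (18.9%, background 19.0%), those of CARS1, FARS2, GARS1, HARS1, MARS1, TARS2 and YARS1, at 0.33 per 100 kb against 0.443. Both shares were near the background. Beyond 3 kb of the canonical start, an alternative added after the data were seen, the counts were 17 for FLAG-ZMYND8 (background 40.6%) and 5 for ZMYND8 (background 15.0%). Apart from the GARS1 peak at its canonical start, the ZMYND8 body peaks had the smallest width of the list, and that of MARS1 too lay close to a canonical start.

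CARS1, a gene of 56692 bp, held the most FLAG-ZMYND8 body peaks, 9, or 16.8 per 100 kb of body. CARS2, IARS2, LARS1 and MARS1 held 4 each. Those of MARS1 include peaks 8692 and 1287 bp upstream of its canonical start, and those of CARS2 a peak 3219 bp upstream of its own. FARS2, the longest gene of the family at 568149 bp, held 2. By density, VARS1 came above CARS1, with 3 peaks in the body of a gene of 18235 bp, or 19.7 per 100 kb of body. These 3 peaks lay 834, 1648 and 2553 bp from the canonical start of VWA7, so they cannot be assigned to VARS1 alone. YARS2 had 11.8 per 100 kb. Over the bodies together, the cytosolic genes held 34 peaks (4.23 per 100 kb) and the mitochondrial genes 20 (1.52 per 100 kb), and FARS2, with its length, makes up much of the mitochondrial total of 1316 kb.

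**Figure D4:**
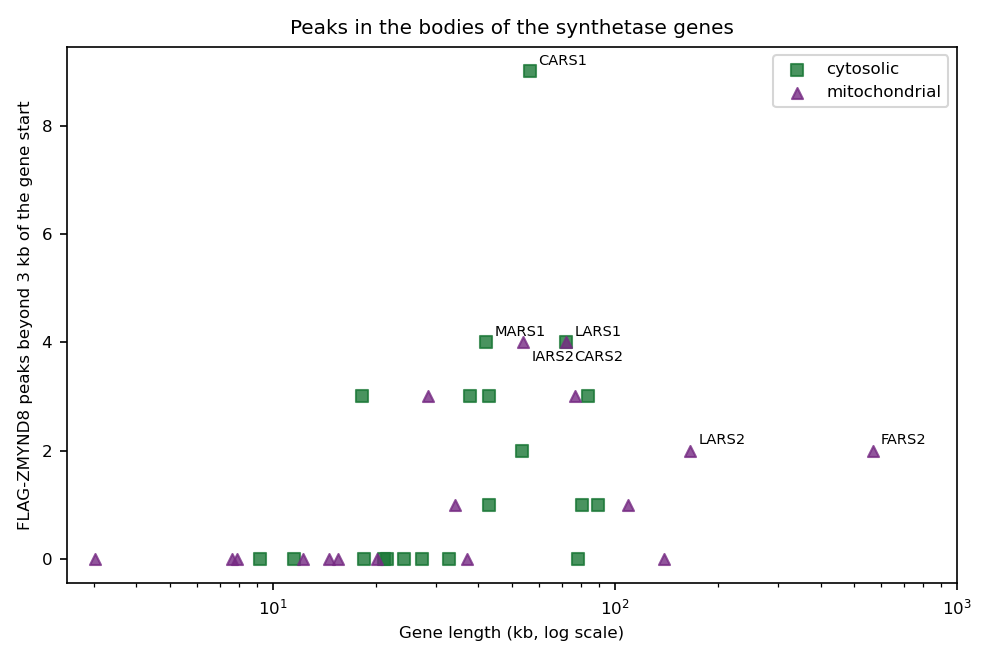
FLAG-ZMYND8 peaks in the gene body (vertical axis, number of peaks beyond 3 kb of the gene start) against gene length (horizontal axis, kb, log scale) for the 20 cytosolic (squares) and 17 mitochondrial genes (triangles). CARS1 stands alone with 9 peaks, 4 genes share 4 peaks each, and the long genes LARS2 and FARS2 hold 2 each.

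The body counts are given next by gene length. Of the 10 synthetase genes under 20 kb, 1 had a FLAG-ZMYND8 peak in its body (10%), against 22.9% of protein-coding genes of that length. Of the 23 genes from 20 to 100 kb, 15 did (65.2%), against 55.4%, and of the 4 longer genes 3 did (75%), against 71.1%. FLAG-ZMYND8 peaks lay in the bodies of 13 of 18 class I genes (72.2%) and 6 of 18 class II genes (33.3%), against a background of 44.6%. This contrast was seen in the data, was not split by gene length and was not tested. Both counts include genes whose body peaks lay near another start, such as VARS1 in class I and GARS1 in class II.

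Other genes of tRNA charging were taken as a further list of 13: the complex scaffolds AIMP1, AIMP2 and EEF1E1, the editing or deacylating proteins AARSD1, DTD1 and DTD2, the synthetase relative TARS3, the selenocysteine enzymes SEPSECS and PSTK, the amidotransferase subunits QRSL1, GATB and GATC, and the formyltransferase MTFMT. ZMYND8 peaks lay within 3 kb of the start at 8 of the 13, which were AARSD1, AIMP2, DTD1, DTD2, EEF1E1, GATC, PSTK and SEPSECS (background 34.1%). FLAG-ZMYND8 peaks lay at 11, all but GATB and TARS3 (background 58.1%). Overlapping peaks lay at 6 (background 20.4%), AARSD1, AIMP2, DTD2, EEF1E1, PSTK and SEPSECS. In the bodies, ZMYND8 peaks lay in 2 (background 19.0%) and FLAG-ZMYND8 peaks in 6 (background 44.6%). The scaffold AIMP2 thus had peaks of both lists at its start and in its body, while AIMP1 had a FLAG-ZMYND8 peak at its start alone.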

How the data were processed

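Per the labels and the study's methods, the authors aligned ChIP-seq reads to hg19 with BWA-MEM (BWA 0.7 in the submitters' processing notes) and used HOMER for profiles. Peak-calling settings, and whether replicates were pooled, are not given in the sources used here. Each deposited list has 6 columns, with peak coordinates and a score; the deposited score is 1 in every row and ranks nothing, so width was used. Peaks were placed on GENCODE release 44 lifted to GRCh37, the build of the lists, by their midpoints within 3 kb of the gene 5′ end. Shared peaks overlapped by at least 1 bp. Shares have 95% Wilson intervals and differences 95% Newcombe intervals, and no test was run. The placing functions were tested on simulated lists. Gene lists (compartment, complex, fold, ATF4 targets, other tRNA charging genes) came from general knowledge, and genes and lists were chosen with earlier results of these data known. Named in full were the 6 genes with most bases under peaks of each list, genes with no peak or a ZMYND8 peak alone, genes sharing a start, the 4 with most body peaks in each list, and the pairs for 1 amino acid. Canonical starts and the width limit were added after the data were seen. Values of some single genes and sequences are not reported here. Python 3.11.15, numpy 2.4.6, pandas 2.3.3, scipy 1.17.1 and matplotlib 3.10.9 were used.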

Additional observations from a re-analysis of the deposited data

How the results depend on the processing

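The 8 counts and differences of the report were recomputed in 54 combinations with an alternative, 8 of them (canonical starts) added after the data were seen. Counts stayed within 1.5 times, or differences within their interval, in 45. Keeping peaks wider than the smallest width gave 9 genes with a ZMYND8 peak at the start (background 23%) and 1 with one in the body, GARS1 (background 8.76%). Keeping the widest FLAG-ZMYND8 peaks, as many as there are ZMYND8 peaks, gave 17 of 37 genes with a FLAG-ZMYND8 peak at the start. This is 45.9% (Wilson interval 31 to 61.6%), and the background of 35.5% lies inside the interval, unlike with the full list. It also gave 8 genes with both (background 20.1%) and 7 with a FLAG-ZMYND8 peak in the body (14.8%). A reciprocal overlap of 50% left 2 genes with shared peaks, CARS1 and NARS2 (background 8.37%). Taking the whole gene as the body gave 15 genes for ZMYND8 (background 37.5%) and 34 for FLAG-ZMYND8 (64.8%), which includes the peaks at starts by construction. The cytosolic minus mitochondrial difference for FLAG-ZMYND8 was -27.4 points within 500 bp (-51.1 to 2.89), and it turned positive from transcript starts (6.76), from canonical starts (12.6), with the widest peaks (8.82) and without GARS1 and KARS1 (0.654). The cause of these shifts was not tested. No paired analysis was possible because each target has a single list without replicate names, and leaving out a replicate could not be tried either. With no read counts, a gene without a peak cannot be told from a gene with too few reads.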

Other observations

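A wide ZMYND8 peak (664 bp or more) and TGATGNAA at the canonical start came together at 22 protein-coding genes, of which 5 were synthetase genes. The others included COLGALT2, FGFBP3, GADD45G, GPN3, HOXC5, KRT17, NCAM1, NDUFS6, NUP153, PGAP4, PLEKHH3, RPS23, SEPHS1, TMEM268, TRAF1 and an unnamed gene of the annotation. These names were taken after the values were seen. The 5 synthetases charge tRNAs with cysteine, glycine, isoleucine, threonine and tyrosine, and SEPHS1 encodes a relative of selenophosphate synthetase. The other genes have mixed roles, such as the ribosomal protein RPS23, the nucleoporin NUP153 and the keratin KRT17.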
